A study of Mus musculus with 6 samples.

Results

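Serum response factor (SRF) and its cofactors were followed through 6 CUT&Tag libraries of primary mouse cardiac fibroblasts. The 7 genes were Srf, the myocardin-related genes Mrtfa, Mrtfb and Myocd, and the ternary complex factor (TCF) genes Elk1, Elk3 and Elk4. Regions were taken by gene symbol from 4 deposited tables, and each table set the read density of 1 library against that of another. The 7 genes held 108 regions with distinct coordinates out of 370722. By table, they held 55 of 170890 and 51 of 180118 regions in the T set, and 15 of 52723 and 12 of 52579 regions in the S set.

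CUT&Tag uses an antibody to bring a transposase to chromatin, so that reads gather around the sites its target occupies. The titles carry a T or an S, and the antibody is not among the labels. The study lists this series as CUT&Tag of SRF and TAZ, so T may stand for TAZ and S for SRF, which was not checked here. It also profiled TET3, which it lists as a separate series. Each set held 1 library for NC cells, 1 for TGF-b and 1 for TGF-b with an siRNA, which the labels call SiTAZ (T set) and SiSRF (S set). The text of the study names Piezo2 as the siRNA target, and the 2 accounts could not be reconciled here. The labels give the tissue (heart) and cell type for all 6 libraries, with no genotype, age, dose or time. The series' design text speaks of a Cre virus and Tet3 deletion, which no label of these libraries names. With 1 library per treatment and set there was no replicate and no test between conditions, and intervals below cover counting error only.

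SRF is a MADS-box transcription factor that binds the CArG box as a dimer. Its activity is set by 2 families of cofactors. Members of the MRTF family carry actin-binding motifs, are held back by monomeric actin and enter the nucleus when actin polymerises, and the SRF target genes that they drive encode much of the contractile machinery of myofibroblasts. TCFs are ETS-domain proteins that bind DNA next to SRF and are phosphorylated by ERK, and they serve the immediate early genes. MYOCD is the member of the MRTF family found mainly in cardiac and smooth muscle. TAZ does not bind DNA itself and reaches chromatin through TEAD factors, whose core motif is GGAATG.

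Most of the regions lay inside the genes and away from their starts. In the table of TGF-b over NC in the T set, 43 of the 55 regions were intronic (78.2%, against 44.5% of all regions), 8 were annotated as promoter (14.5% against 7.66%) and 3 as 5' UTR. All regions also include intergenic ones with no assigned gene, which a choice by symbol leaves out. These shares therefore differ in base, and no excess in the 7 genes can be read from them. Mrtfa, which spans 178.4 kb, held 38 of the 108 distinct regions. Mrtfb held 25, Myocd 17, Srf 10, Elk3 8, Elk4 7 and Elk1 3. The S set listed far fewer, with 20 distinct regions against 88 in the T set.

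A symbol in these tables names the nearest transcript start and not the gene in which a region lies. The annotation placed 7 of the 10 Srf regions in an exon or introns of the neighbouring gene Ptk7, at 16.4 to 33.4 kb upstream of the Srf start. It placed 3 of the 7 Elk4 regions in an intron of Gm29103 and 1 of the 3 Elk1 regions in an intron of Uxt. One Myocd region was annotated as downstream of a gene that was not named. Those 12 regions are kept here as the symbol rule asks, and their host gene is stated where they are described.

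**Figure D1:**
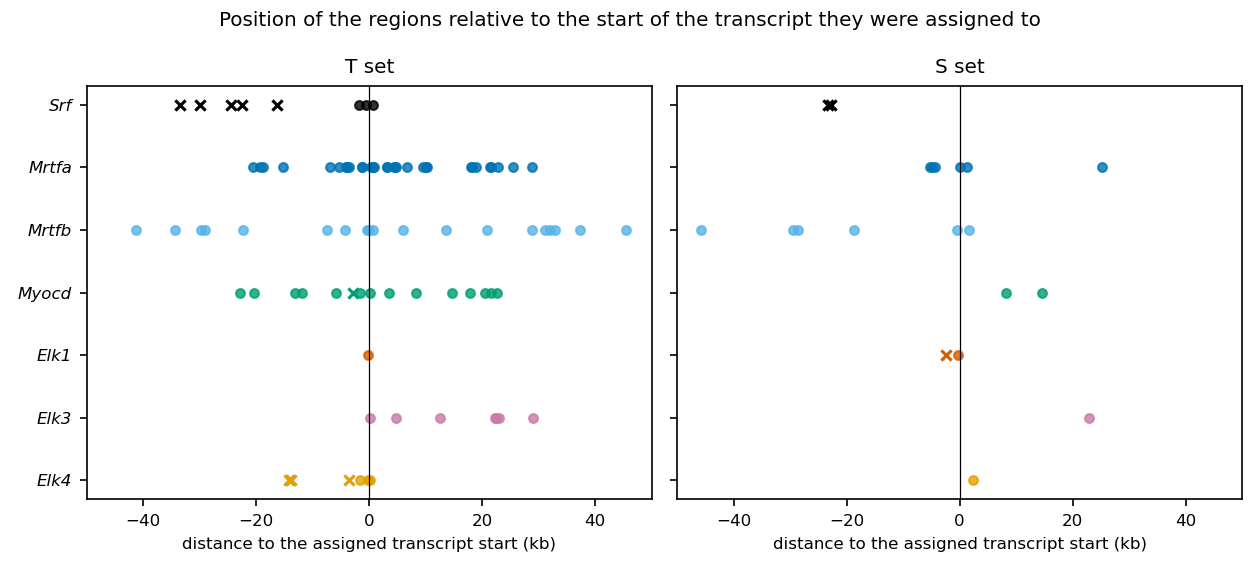
Distance in kb from each region to the start of the transcript it was assigned to, for the T set (left) and the S set (right), with 1 row per gene. Circles are regions that the annotation places at or in the gene itself and crosses are regions in another or an unnamed gene. All 5 T set regions of Srf beyond 10 kb are crosses, whereas Mrtfa and Mrtfb regions are spread on both sides of their starts.

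Promoter sequences were searched for the motifs of SRF, TEAD and ETS factors. RefSeq promoter entries (build GRCm38.p6) were matched by symbol for 6 of the 7 genes, with 11 entries in all, and the 250 bases before the start were searched on both strands. The motifs were the CArG box, the TEAD core GGAATG and the ETS core CCGGAA. Matches of the last pair can overlap, and none did in these genes. The CArG box was present in 1.47% of all 32851 RefSeq promoters, GGAATG in 12.6% and CCGGAA in 12.0%. Srf was the only one of the 6 genes with a CArG box, and it held 2, at 82 to 73 and 62 to 53 bases upstream of the start. GGAATG was found only at the third listed start of Mrtfb, at 81 to 76 bases upstream. CCGGAA was found in Srf, in the first listed start of Elk4 and, on the minus strand, in the first 2 starts of Mrtfb. A match is a description of letters and no evidence of binding. Shown next, 5' to 3' on the gene's strand with matches in capitals, are the promoters of Srf (chr17:46556163-46556412, minus strand), of the internal Mrtfb start (chr16:13358171-13358420, plus strand), of Elk4 (chr1:132007370-132007619, plus strand) and of Elk1 (chrX:20950609-20950858, minus strand, no match). They were chosen because reads at or near these genes carry the results that follow.
Srf: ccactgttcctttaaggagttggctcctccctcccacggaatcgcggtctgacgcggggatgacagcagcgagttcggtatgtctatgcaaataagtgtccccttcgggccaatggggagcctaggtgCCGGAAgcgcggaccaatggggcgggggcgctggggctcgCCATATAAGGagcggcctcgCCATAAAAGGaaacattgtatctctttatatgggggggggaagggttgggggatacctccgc
Mrtfb, internal start: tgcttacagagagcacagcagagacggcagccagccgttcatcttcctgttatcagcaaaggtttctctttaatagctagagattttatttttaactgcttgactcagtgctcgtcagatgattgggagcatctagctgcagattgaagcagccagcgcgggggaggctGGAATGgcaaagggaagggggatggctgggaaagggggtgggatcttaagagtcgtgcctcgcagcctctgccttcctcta
Elk4: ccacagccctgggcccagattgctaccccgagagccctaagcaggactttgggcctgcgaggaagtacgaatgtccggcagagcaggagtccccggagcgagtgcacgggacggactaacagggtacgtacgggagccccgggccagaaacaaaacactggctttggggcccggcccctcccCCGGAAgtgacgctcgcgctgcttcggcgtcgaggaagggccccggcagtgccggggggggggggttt
Elk1: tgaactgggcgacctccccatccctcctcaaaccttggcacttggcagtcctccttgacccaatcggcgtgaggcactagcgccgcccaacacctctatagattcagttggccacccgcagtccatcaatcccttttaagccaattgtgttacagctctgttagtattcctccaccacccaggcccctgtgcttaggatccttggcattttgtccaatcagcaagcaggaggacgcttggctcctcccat

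Across the 7 genes, T set ratios moved with the bulk of each table. Between TGF-b and NC in the T set, 6 of 55 regions were at least 2-fold higher and 24 were at least 2-fold lower. The background over all regions was 17.3% higher and 42.1% lower, so that the shares in the 7 genes (10.9% and 43.6%) were below and near it. Their median log2 ratio was -0.83 (rank-based 95% interval -1.30 to -0.47), beside -0.65 for all regions. With that median subtracted, 10 were higher and 14 lower. With siRNA, 27 of 51 T set regions were at least 2-fold higher than with TGF-b alone and 5 were lower. The background was 49.7% and 16.2%. The median was 1.28 (0.45 to 1.53), beside 0.97 for all regions. Relative to all regions the counts were 9 higher and 10 lower with a median of 0.31, and with overlapping windows counted once the median was 0.72. Both T set ratios use the same TGF-b library, so that few reads in it push them in opposite directions. Of the 51 regions, 35 were called with siRNA only, as were 126997 of all 180118.

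Of 15 S set regions, 1 was at least 2-fold higher with TGF-b and 5 were lower, beside 17.4% and 26.7% of all regions. The median log2 ratio was -0.58 (-1.60 to 0.08), and that of all regions was -0.20. Without the authors' scaling line, the S set medians were 0 for the 7 genes and 0.36 for all regions. The S set median relative to all regions was -0.38 with the line, against -0.18 for the T set. With siRNA, 1 of 12 S set regions was higher and 4 were lower, beside 15.1% and 27.8%, and the median was -0.19 (-1.46 to 0.48) beside -0.21.

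**Figure D2:**
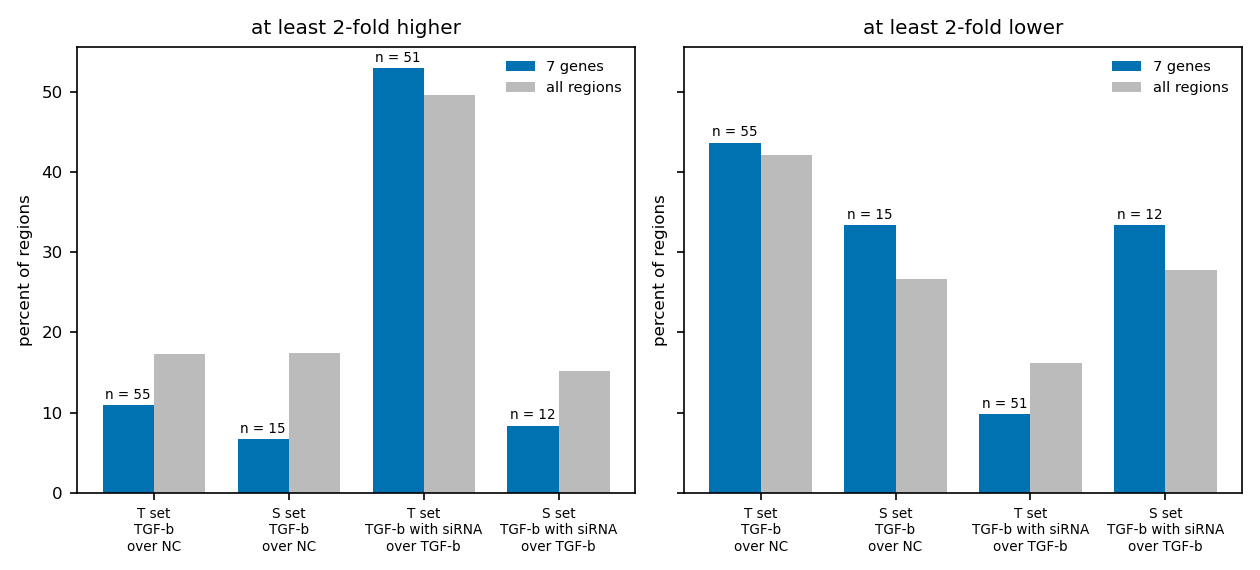
Percent of regions at least 2-fold higher (left) or lower (right) in each table, for the 7 genes (blue, with the number of regions) and for all regions (grey). On the left the blue bars run from 6.67% against 17.4% (TGF-b, S set) to 52.9% against 49.7% (siRNA, T set).

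Many of these ratios rest on few reads. Reads could be recovered from the deposited densities. In the first T set table, 20 of the 55 regions had 3 reads or fewer in at least 1 library (36.4%, against 49.3% of all regions). A stricter count took regions past 2-fold whose 95% counting interval lay on 1 side of 0. It left 5 higher and 16 lower regions for TGF-b and the T set (background 14.1% and 30.2%) and 23 higher and 2 lower with siRNA (38.4% and 11.0%). For the S set it left 1 higher and 4 lower with TGF-b (11.1% and 18.7%), and 0 higher and 3 lower with siRNA (9.69% and 21.0%). When the median of all regions was subtracted, 28 of 85 ratios of named regions kept their sign but had intervals that came to hold 0, and 9 others, with intervals that already held 0, changed sign. Such values are called relative to all regions below. Regions were called in each library separately, so that a region called in 1 library only tends to be higher there. In the first T set table, 39 of the 55 regions were called in NC cells only, with a median log2 ratio of -1.08 (-1.27 for all such regions). The 13 called with TGF-b only had a median of -0.021, whereas the median of all such regions was 1.41. The remaining 3 regions were called in both. Over all 170890 regions the same calls numbered 117769, 43854 and 9267, which is much the same split.

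**Figure D3:**
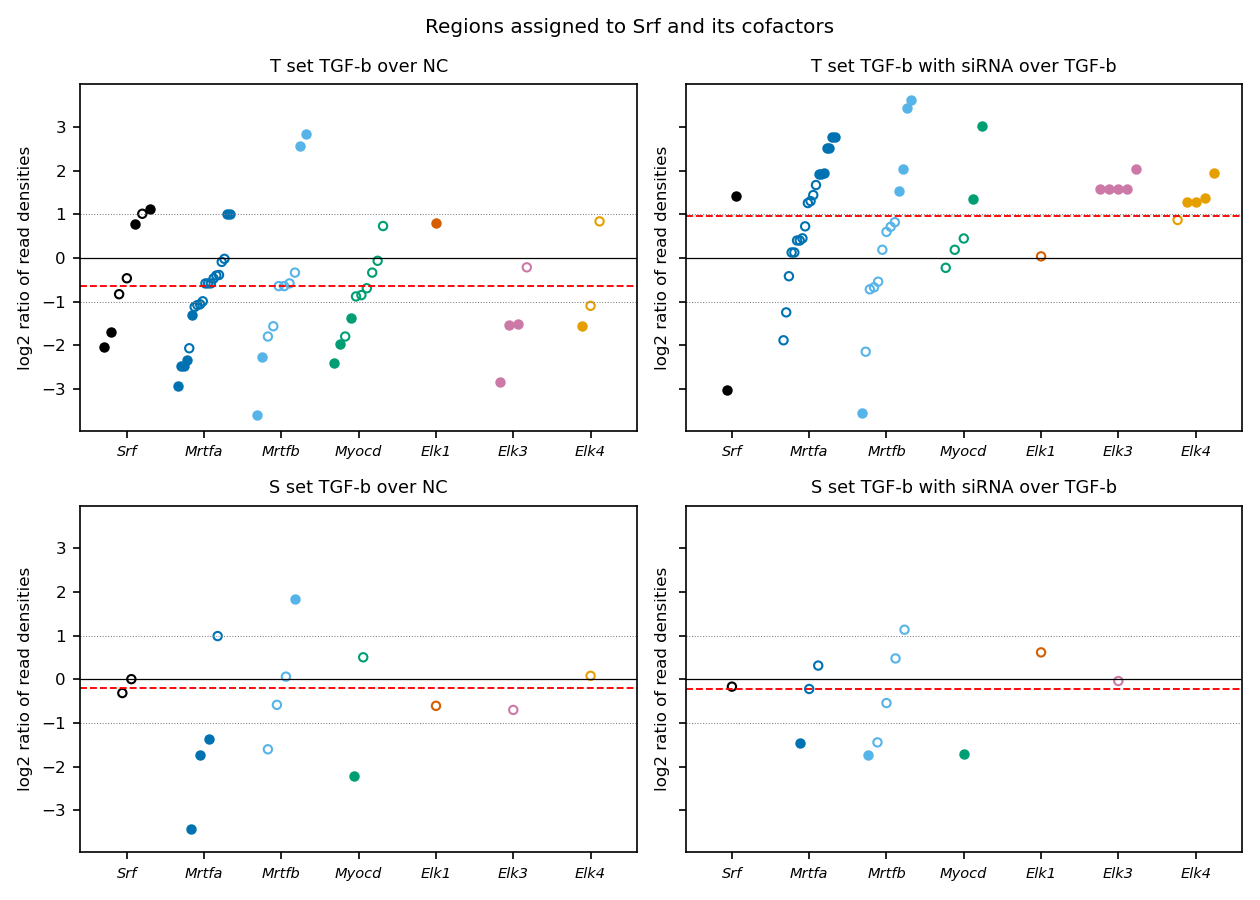
Log2 ratio of read densities for every region of the 7 genes in the 4 tables, with 1 point per region. Filled points have a 95% counting interval on 1 side of 0, the red dashed line is the median of all regions, and dotted lines mark 2-fold. Elk3 points lie below 0 with TGF-b in the T set and above 0 with siRNA, and Mrtfa and Mrtfb points span from -3.60 to 3.61 over the T set tables.

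Reads increased inside the Srf gene with TGF-b. No region was listed at the start of the full-length Srf transcript (chr17:46867101), the nearest being 2.52 kb downstream of it. A pair of neighbouring regions lay within the gene, and the tables call them promoter because a short retained-intron transcript begins close by. The region at chr17:46864538-46864623 had 23 reads in NC cells and 51 with TGF-b in the T set. Its density was 12.0 and 26.0, a log2 ratio of 1.12 (0.45 to 1.85), and it ranked at percentile 97.4 of mean density in its table. Next to it, chr17:46863275-46863387 had 22 and 38 reads (log2 0.78, 0.057 to 1.56), and the windows of both regions overlap. Both were called in NC cells only, although the TGF-b library had more reads at each. With siRNA, a region in an exon at chr17:46860353-46860439, 6.71 kb from the start, had 24 reads against 12 with TGF-b alone (log2 1.41, 0.49 to 2.45). Against the median of all regions that was 0.44, with an interval that held 0. It lies apart from the pair that rose with TGF-b, which the siRNA table did not list, and the S set listed no region within Srf.

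The Ptk7 regions that carry the Srf symbol went other ways. At chr17:46891580-46891739 the T set had 5 reads in NC cells, 10 with TGF-b and 0 with siRNA. That was at least 2.02-fold lower with siRNA, with the empty library set to 3 reads. At chr17:46896985-46897106 reads were 17 and 3 for NC and TGF-b (log2 -2.04, -4.05 to -0.69), and the other 3 Ptk7 regions of that table ran from -1.71 to -0.47. Among S set regions, chr17:46890322-46890497 had 7 reads in NC cells, 11 with TGF-b and 9 with siRNA (log2 0.0063 and then -0.17). The other S set region, chr17:46889854-46889926, had 9 and 11 reads for NC and TGF-b (log2 -0.31, -1.52 to 0.95). Both lay in Ptk7, and no interval of theirs left out 0.

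Mrtfa encodes the broadly expressed MRTF that shuttles between actin and SRF. Of its 20 regions in the first T set table, 2 were at least 2-fold higher and 9 lower with TGF-b, with a median log2 ratio of -0.79 and a range of -2.94 to 1.01. The 45.0% lower was near the 42.1% of all regions. The clearest loss was at an internal start, where chr15:80928964-80929097 and chr15:80929462-80929556 share 1 pile of reads. It held 23 reads in NC cells, 3 with TGF-b and 6 with siRNA. The ratio of TGF-b to NC was -2.47 (-4.46 to -1.17) in log2. Going the other way, chr15:80971006-80971109 in an intron had 10 reads in NC cells, 20 with TGF-b and 19 with siRNA, with a log2 ratio of 1.01 (0.0091 to 2.15) for TGF-b and 0.40 (-0.50 to 1.29) for siRNA. Without the line the first was 0.93 with an interval that held 0, and relative to all regions the second was -0.57. Its neighbour chr15:80971258-80971451 holds the same reads. With siRNA, 11 of 20 Mrtfa regions were at least 2-fold higher (49.7% of all regions were) and 2 lower, and the median was 1.28. Counted relative to all regions, 4 were higher and 3 lower.

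The best covered of the Mrtfa gains with siRNA were intronic. Reads went from 5 to 24 at chr15:80920189-80920274 (log2 2.52, 1.38 to 4.07) and from 6 to 28 at chr15:80947959-80948024 (log2 2.51, 1.45 to 3.92). At chr15:81053044-81053194 they went from 7 to 21 (log2 1.92, 0.85 to 3.25), and the last was 0.95 relative to all regions, with an interval that held 0. Higher ratios rested on fewer reads, as at chr15:80904606-80904677 with 1 and 9 reads (log2 2.77, 1.01 to 6.23) and chr15:80933879-80933952 with 0 and 4 reads. None of these was near the 5' end of Mrtfa. In the T set no region lay within 6.9 kb of the 5'-most start, whereas the S set with siRNA listed a 5' UTR region at chr15:81074794-81074872, 91 bases from it. That region had 23 reads with TGF-b and 28 with siRNA (log2 0.32, -0.46 to 1.11) and ranked at percentile 96.5 in its table.

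Mrtfa held 4 S set regions in the table of TGF-b over NC and 3 in that of siRNA. Of the first 4, 3 were at least 2-fold lower with TGF-b (26.7% of all regions were), the one with the most reads being chr15:80912391-80912475 with 11 and 6 reads (log2 -1.36, -2.84 to -0.074). That interval held 0 relative to all regions (-1.16) and without the line (-0.78). The fourth, chr15:81049326-81049552 in an intron, had 3 reads in NC cells, 11 with TGF-b and 3 with siRNA. Its log2 ratio was 0.99 (-0.45 to 3.02) with TGF-b and -1.46 (-3.48 to -0.013) with siRNA. The latter was -1.25 relative to all regions, where its interval held 0.

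Mrtfb encodes the second ubiquitous MRTF. Its best covered region stood at the internal start whose promoter holds GGAATG. At chr16:13175754-13175929, 444 bases upstream of that start, the T set had 34 reads in NC cells, 21 with TGF-b and 9 with siRNA. TGF-b over NC was -0.65 (-1.45 to 0.11) and siRNA over TGF-b -0.67 (-1.86 to 0.34) in log2, so that reads were fewer at each step and neither interval left out 0. Relative to all regions they were 0.0070 and -1.64, and the siRNA interval then lay below 0, as it did without the line (-1.14). It ranked at percentile 95.3 and 90.2 of mean density in the 2 tables. The S set listed almost the same interval, chr16:13175749-13175944, with 8, 13 and 8 reads. There the log2 ratio was 0.064 (-1.11 to 1.36) for TGF-b and -0.54 (-1.84 to 0.63) for siRNA. The 5'-most start of Mrtfb had 1 region, chr16:13074955-13075026 at 620 bases downstream, with 10 reads in NC cells and 7 with TGF-b in the T set.

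Other Mrtfb regions were intronic and sparse. In the T set, chr16:13141786-13141904 had 2 reads in NC cells, 15 with TGF-b and 0 with siRNA. The log2 ratio was 2.57 (1.09 to 5.03) with TGF-b, and siRNA was at least 2.94-fold lower. At chr16:13115699-13115857 there were 13 reads in NC cells and 0 with TGF-b, at least 3.03-fold lower. Over all its regions, Mrtfb had 2 higher and 4 lower of 10 with TGF-b and 4 higher and 2 lower of 13 with siRNA in the T set. Its shares of 20.0% and 40.0% with TGF-b were near those of all regions (17.3% and 42.1%), and with siRNA 30.8% were higher against 49.7%. Counted relative to all regions, 3 were higher and 5 lower with siRNA. Of the S set regions, chr16:13130398-13130603 had 1, 10 and 2 reads. TGF-b over NC gave a log2 ratio of 1.85 (0.12 to 5.31) and siRNA over TGF-b gave -1.74 (-4.21 to -0.16), or -1.53 relative to all regions with an interval that held 0. A region at chr16:13157452-13157634 had 8, 8 and 2.

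Myocd, whose product is a muscle cofactor of SRF, had reads in fibroblasts. Among its 10 T set regions with TGF-b, 9 had a log2 ratio below 0, 4 were at least 2-fold lower and none was at least 2-fold higher. All 10 had been called in NC cells only, as had 117769 of all 170890 regions. They formed 6 stretches of overlapping windows, with median reads of 8.5 and 4.5. Their median percentile of mean density was 50.9, the middle of the table. The share at least 2-fold lower (40.0%) was near the 42.1% of all regions, of which 66.9% were below 0. A 5' UTR region at chr11:65160593-65160666 had 6 and 5 reads in NC cells and with TGF-b, and a promoter region at chr11:65162475-65162546 had 8 and 1. The best covered S set region of Myocd was in an intron, at chr11:65146056-65146267. It had 9 reads in NC cells, 20 with TGF-b and 5 with siRNA, a log2 ratio of 0.51 (-0.52 to 1.70) for TGF-b and of -1.71 (-3.27 to -0.54) for siRNA. The overlapping T set region, chr11:65146028-65146134, had 7 reads with TGF-b and 4 with siRNA (log2 -0.23, -2.03 to 1.32). With siRNA in the T set, 2 of 5 Myocd regions were at least 2-fold higher (40.0%, against 49.7%) and none was lower.

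Elk3, also called Net, encodes a TCF that represses transcription until it is phosphorylated. It held the region with the most reads in any library, 74 in NC cells of the T set. A pile in its first part, 23 kb into the gene and within an intron, was listed as chr10:93123603-93123956 together with 1 or 2 adjoining regions that share its reads. In the T set it had 72 reads in NC cells, 25 with TGF-b and 55 with siRNA. Densities were 36.7 and 12.9 in the first table and 11.0 and 33.1 in the second, giving -1.51 (-2.19 to -0.89) for TGF-b and 1.59 (0.94 to 2.29) for siRNA on the log2 scale. Both ratios were past 2-fold, at percentiles 98.5 and 98.7 of mean density. Relative to all regions both were under 2-fold, at -0.85 for TGF-b and 0.62 for siRNA, and the siRNA interval then held 0. The S set region at the same place, chr10:93123699-93123826, had 11, 10 and 9 reads, with a log2 ratio of -0.70 (-1.91 to 0.49) for TGF-b and -0.037 (-1.31 to 1.21) for siRNA.

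The remaining Elk3 regions had fewer reads. In the 5' UTR at chr10:93146900-93146969 there were 15 and 12 reads for NC and TGF-b (log2 -0.22, -1.31 to 0.83, and 0.44 relative to all regions). At chr10:93141906-93142051 reads were 15 and 1. With siRNA, all 5 Elk3 regions of the T set were at least 2-fold higher (49.7% of all regions were), or 1 of 5 relative to all regions, with 3 of the 5 sharing the large pile, and the remaining pair had 2 and 8 reads and 5 and 12 reads.

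Elk1 encodes the best known TCF and had 1 region in each T set table, at its promoter. That region, chrX:20816831-20817228 at 182 bases upstream of the start, was called in all 3 T set libraries, and had 21 reads in NC cells, 37 with TGF-b and 27 with siRNA. Its log2 ratio was 0.81 (0.075 to 1.60) with TGF-b, under 2-fold, and 0.036 (-0.69 to 0.73) with siRNA. Relative to all regions they were 1.46 and -0.93, so that the siRNA ratio turned below 0 and its interval (-1.66 to -0.24) left out 0. The S set listed the promoter with siRNA only, as chrX:20816996-20817187 with 14 reads for TGF-b and 21 for siRNA (log2 0.62, -0.31 to 1.61). The other S set region that carries the Elk1 symbol lay in Uxt and had 4 and 4 reads.

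Elk4, or SAP-1, is the third TCF. Its promoter appeared in the T set with siRNA, as chr1:131935030-131935115 at 273 bases upstream and chr1:131935397-131935466 in the 5' UTR, which share 1 pile close to the start whose upstream sequence holds CCGGAA. By distance from the start, that match lies between these regions and in neither of them. The pile had 19 reads with TGF-b and 34 with siRNA, densities of 8.49 and 20.6, and a log2 ratio of 1.28 (0.51 to 2.11), or 0.31 relative to all regions, where its interval held 0. In NC cells and TGF-b, the Elk4 promoter table entry was instead at chr1:131933700-131933776, 1607 bases upstream, with 12 and 3 reads (log2 -1.55, -3.57 to -0.13). That was -0.90 relative to all regions, and its interval then held 0. The Gm29103 regions under the Elk4 symbol had 4 to 14 reads. Elk4 had 1 intronic S set region with 4 and 7 reads for NC and TGF-b, and none with siRNA.

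By family, all TCF regions together had 0 higher and 5 lower of 8 with TGF-b in the T set and 9 higher and 0 lower of 11 with siRNA. The MRTF family had 4 higher and 17 lower of 40, then 17 higher and 4 lower of 38. The MRTF family shares of 42.5% lower with TGF-b and 44.7% higher with siRNA stood near the 42.1% and 49.7% of all regions, and the TCF shares were 62.5% and 81.8%. Relative to all regions the TCF counts were 2 higher and 1 lower with TGF-b, and 1 higher and 0 lower with siRNA, and those of the MRTF family were 5 and 11, then 8 and 9. For the S set, 5 of 10 MRTF family regions and 0 of 3 TCF regions were lower with TGF-b (26.7% of all regions), and 4 of 9 and 0 of 2 with siRNA (27.8%). Several TCF regions share reads, so that those counts are not independent, and the difference between families was not tested.

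The libraries of a set can be followed together where a region was listed in both tables. This held for 18 T set regions of 6 genes and 7 S set regions of 5 genes, and the TGF-b library gave the same number of reads in both tables at each of them. In the T set, the TGF-b library had the most reads of the 3 at 6 regions and the fewest at 5. The S set TGF-b library had the most at 5 of 7 and the fewest at 0. Each of these 5 regions was called with TGF-b in both tables, which favours a high middle value. Some T set regions share reads, and no such counts were made over all regions. The counts can therefore not be called particular to these genes. The reads are those before the scaling between libraries, which shifts the ratios by the values given under the processing.

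**Figure D4:**
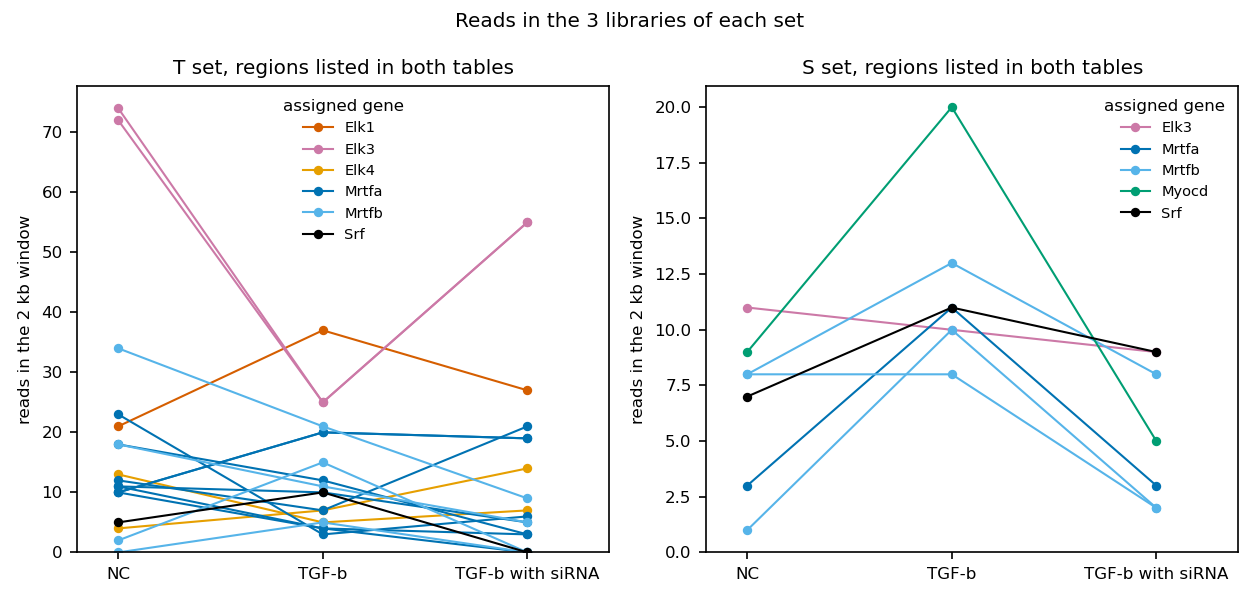
Reads in the 2 kb window of each region listed in both tables of a set, in NC, TGF-b and TGF-b with siRNA, for the T set (left) and the S set (right), with 1 line per region coloured by assigned gene. The Elk3 lines of the T set go from 72 and 74 reads to 25 and back to 55, and the Myocd line of the S set goes from 9 to 20 to 5.

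A minority of S set regions coincided with T set regions. With TGF-b over NC, 4 of 15 S set regions overlapped a T set region by at least 1 base (26.7%), and these were 4 of 55 T set regions (7.27%). Over all regions these shares were 12.7% and 3.98%. The overlaps lay in Elk3, Mrtfa, Mrtfb and Myocd. With siRNA, 4 of 12 S set regions overlapped (33.3%, and 7.84% of the T set regions), in Elk1, Elk3, Mrtfb and Myocd, beside 15.9% and 4.69% over all regions. The Elk3 intron and the internal Mrtfb promoter were shared in both. At the Myocd intron region chr11:65152522-65152612 both sets had fewer reads with TGF-b, 13 and 6 in the T set (log2 -0.88, -2.34 to 0.35) and 5 and 1 in the S set (log2 -2.20, -5.63 to -0.25). Without the line the S set value was -1.58, and its interval held 0.

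Known targets and partners of SRF were scored by 1 promoter region per gene, the densest within 3 kb of a start. It was picked in each table separately, so that the region of a gene can differ between tables. Over all genes, 20.0% of such regions were at least 2-fold higher and 24.2% lower with TGF-b in the T set, and 22.0% and 15.6% in the S set. With siRNA the shares were 30.4% and 19.9% in the T set and 13.5% and 14.9% in the S set.

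Genes of the MRTF-type, which encode mostly actin and its partners, had their promoters measured for 19 in the T set. Of the 19, 5 were higher with TGF-b and 0 lower, with a median of 0.32. Actn1, which encodes alpha-actinin, had 16 and 67 reads (log2 2.01, 1.30 to 2.85). Vcl, for vinculin, had 31 and 76 reads (log2 1.24, 0.67 to 1.86), and Fhl2, Cnn1 and Tgfb1i1 were the other three. Acta2, for smooth muscle actin, was level with TGF-b at 35 and 36 reads (log2 0.039) and had 8 reads with siRNA (log2 -1.57, -2.78 to -0.62). With siRNA 3 of 19 were higher (Mylk, Cnn2 and Tpm2) and 3 lower (Actn1, Acta2 and Myl9), with a median of -0.0014 beside 0.19 for all genes. Mylk, for myosin light chain kinase, had 11 reads with TGF-b and 38 with siRNA (log2 2.17, 1.31 to 3.21). Among S set regions 2 of 7 were higher with TGF-b (Myh9 and Tgfb1i1) and none lower, and with siRNA 2 of 10 were higher (Acta2, Cald1) and 1 lower (Tgfb1i1, 26 and 8 reads, log2 -1.51, -2.74 to -0.51).

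TCF-type targets had 1 higher (Mcl1) and 1 lower (Egr3) of 7 with TGF-b in the T set. With siRNA 2 of 8 were higher, Egr3 at 2 and 7 reads (log2 1.86, 0.17 to 4.34) and Ier2 at 10 and 15 (just past 2-fold, log2 interval -0.078 to 2.17). This Egr3 region was not the one that was lower with TGF-b. The 3 lower ones were Ier3 at 24 and 0 reads, Egr1 at 71 and 22 reads (log2 -1.17, -1.89 to -0.53) and Junb at 74 and 23 (log2 -1.16, -1.87 to -0.54). Junb in the S set had 5 and 20 reads with siRNA (log2 1.90, 0.73 to 3.46). Only 1 TCF-type target had a promoter region with TGF-b in the S set and 2 with siRNA. Of the other partners of SRF, 1 of 6 was higher (Nkx2-5) and 1 lower (Gata4) with TGF-b in the T set, and 0 of 5 higher and 1 lower (Cebpb) with siRNA. Both measured partners in the S set were higher with TGF-b, and Smad3 went from 3 reads to 24 and then to 8 with siRNA (log2 2.07, 0.78 to 4.06, and -1.40, -2.63 to -0.38).

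**Figure D5:**
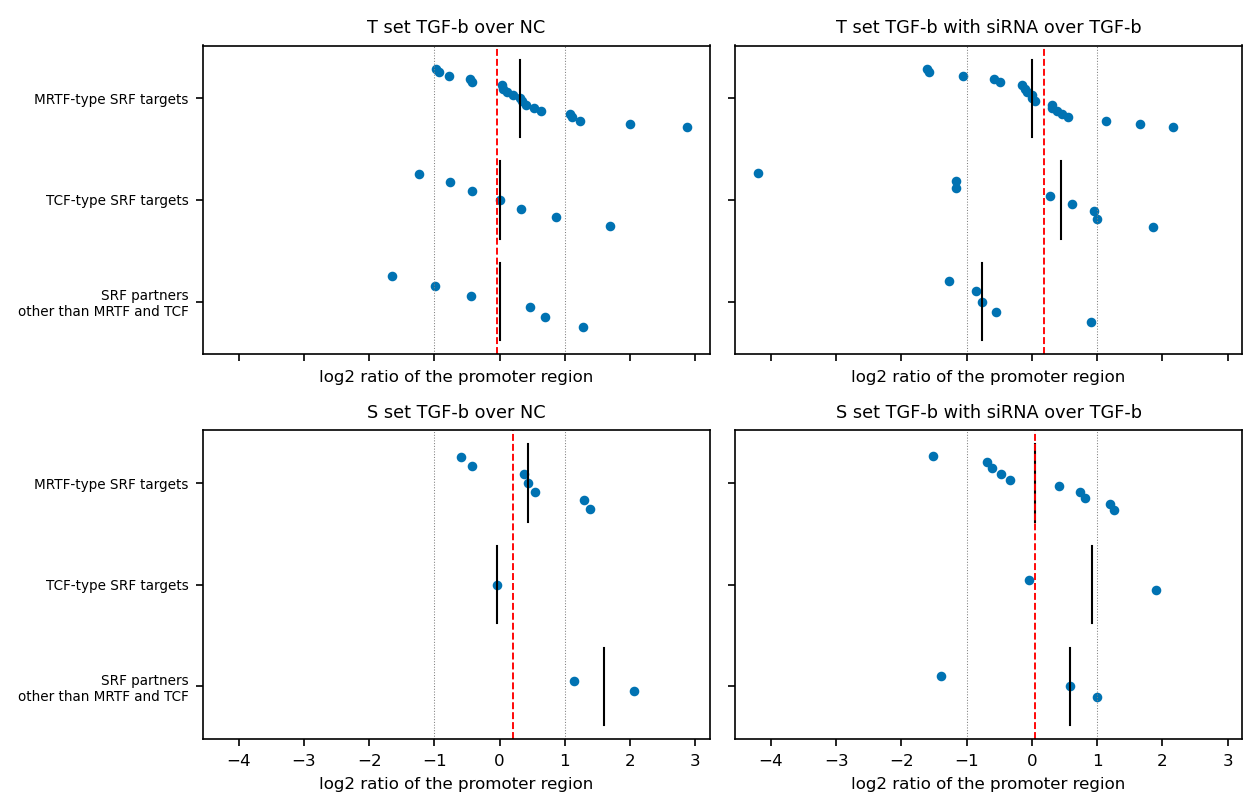
Log2 ratio of the promoter region of each measured gene in 3 lists of SRF targets and partners, in the 4 tables. Points are genes, black bars are list medians, the red dashed line is the median of all genes with a promoter region, and dotted lines mark 2-fold. The MRTF-type targets have a median of 0.32 with TGF-b in the T set, to the right of the red line at -0.037.

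Srf had a region within 3 kb of an annotated start only in the 2 T set tables. These were different regions, with log2 ratios of 1.12 and 1.41, the latter being 0.44 relative to all regions. Among 1522 genes with such a region in both tables and a mean density within 1.5-fold of that of Srf, the 3 nearest by straight-line distance over these 2 values included Khdrbs1 (1.04 and 1.20, distance 0.23) and Pask (1.10 and 1.09, distance 0.32). Distances over only 2 values that share the TGF-b library describe these libraries and nothing further.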

How the data were processed

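The 6 libraries were grouped by the labels into a T set and an S set of 3 libraries each, 1 per treatment. Per the labels and the study's methods, reads were aligned, peaks were called and the libraries were compared in pairs. The methods name GRCm39 and Bowtie2, whereas the submitters' processing notes list mm10 and BWA 0.7.12. None of 22 transcripts of the 7 genes found in GENCODE vM21 had its GRCm38 coordinates in the tables although all 22 kept their span, so region coordinates here are those of the deposited files, taken as GRCm39, and no GRCm38 coordinate was mixed with them.

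Each deposited table gives, as the authors made it, a normalised read density (a signal value) for 2 libraries at every region, with an annotation, and the authors' own fold changes and p-values, which were not used. The density of a region was found to be its reads plus 1, divided by 2 for a 2 kb window and scaled by a straight line in mean log2 density. With the line undone, both values came within 0.1 of whole reads in 99.98% to 99.99% of regions. The line added 0.26, -0.64, 0.43 and 0.20 at zero mean log2 density to the log2 ratios of the T and S sets with TGF-b and the T and S sets with siRNA. The log2 ratio is that of the deposited densities, later treatment over earlier.

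Counting intervals (95%) were Wilson intervals, computed on the fraction of a region's reads found in the later library and shifted by the line. They cover counting error only, since reads without molecular identifiers are not independent molecules. Against an empty library, a fold was computed with 3 reads in its place. Median reads per region over all regions were 5 to 10 per library. Regions under 2 kb apart share reads. Regions named in the text were, per gene and table, the densest within 3 kb of a start, the densest anywhere, the highest and lowest ratio among regions with at least 10 reads, and any past 2-fold with an interval on 1 side of 0. Some of these are given as counts. Regions named for their place (near the 5'-most starts, or sharing reads with a named one) were added after their values were seen, and so were the genes named from the lists. The 7 genes and the lists were chosen with earlier results of these data known. Scripts ran in Python 3.11.15 with numpy 2.4.6, pandas 2.3.3 and scipy 1.17.1, and read recovery was tested on simulated data. Some genes and 2 gene lists are not reported here.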

Additional observations from a re-analysis of the deposited data

Results flagged for a closer look

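Values were singled out where the same contrast had opposite signs in the 2 sets. No difference between the sets was tested, since each treatment had 1 library in each. The median log2 ratio over the regions of the 7 genes with siRNA was 1.28 for the T set but -0.19 for the S set, while the medians of all regions were 0.97 and -0.21. At the Elk3 intron region, the log2 ratio for siRNA was 1.59 (T set) and -0.037 (S set). At the internal Mrtfb promoter, the ratio for TGF-b was -0.65 (T set) against 0.064 (S set). In the Mrtfa intron at chr15:81049260-81049369 the T set ratio with TGF-b was -0.39, from 17 and 12 reads, and the overlapping S set region gave 0.99, from 3 and 11 reads. The opposite signs depended on the scaling. Relative to all regions, both sets had the same sign in each of these cases, at 0.31 and 0.020 for the medians, 0.62 and 0.17 for Elk3, 0.0070 and 0.26 for Mrtfb, and 0.26 and 1.19 for Mrtfa. The reverse held at the Elk1 promoter with siRNA, where 0.036 (T set) and 0.62 (S set) became -0.93 and 0.83. Among the single-region ratios as deposited, only that of Elk3 in the T set had a counting interval that left out 0.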

How the results depend on the processing

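Each table was recomputed with 1 choice changed at a time. Centring on the median of all regions gave, for TGF-b in the T set, 10 higher and 14 lower regions and a median of -0.18. With siRNA it gave 9 higher and 10 lower with a T set median of 0.31. S set values under it were a median of 0.020 with siRNA and 2 higher regions with TGF-b. Without the authors' line, each set had 3 higher regions with TGF-b, and lower ones with siRNA numbered 8 in the T set. A 1.5-fold threshold gave 10 higher with TGF-b in the T set, 2 in the S set and 2 with siRNA in the S set. At 4-fold there were 2 higher and 10 lower (T set) and 0 and 2 (S set) with TGF-b, and 9 and 3 (T set) and 0 and 0 (S set) with siRNA. Requiring at least 10 reads left 3 lower S set regions with TGF-b and 3 lower T set regions with siRNA. After the data were seen, 3 alternatives were added, which counted overlapping windows once, kept regions annotated to the gene itself, or set reads of 3 or fewer to 3. Only the last moved a count past 1.5 times, to 0 higher with TGF-b in the S set and 3 lower with siRNA in the T set. The 8 shared regions became 7 when 50% of the shorter region had to overlap. Of 85 single-region ratios, 28 lost an interval on 1 side of 0 under centring and 10 without the line, 3 and 5 gained one, and 9 and 3 with intervals that held 0 changed sign, of which 1 under centring (Elk1 with siRNA) then had an interval below 0. The T set median with siRNA was 0.72 with overlapping windows counted once and 0.60 as the median of gene medians, and the S set median with TGF-b was 0 without the line. No paired analysis was possible because each group had 1 library, and no replicate could be left out. Few reads per region and 1 library per group limit every value.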
